A study of Rattus norvegicus with 6 samples.

Results

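Mitochondrial ribosomal protein genes were compared between aged and adult rats in RNA from the ventral hippocampus. The members were chosen by symbol alone, as every gene whose symbol starts with Mrpl or Mrps and a digit, which gave 76 of the 22601 genes in the deposited table. Of these, 46 carry a large subunit symbol (Mrpl) and 30 a small subunit symbol (Mrps). The animals were male Sprague Dawley rats, an outbred strain, aged 4 months (adult) or 22 months (aged). Both groups had been through the Morris water maze before tissue was taken, and 3 rats were taken at random for RNA from the 10 of each age. Each of the 6 libraries therefore came from a separate animal, and neither group received a drug or carried an engineered allele according to the labels.

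Mitochondria carry their own ribosome, which translates the few respiratory chain proteins that mitochondrial DNA encodes. Its ribosomal RNAs come from mitochondrial DNA, while all of its proteins are encoded in the nucleus, made in the cytosol and imported. The small subunit reads the messenger RNA and the large subunit joins the amino acids and feeds the new chain into the inner membrane. Some of its proteins descend from the proteins of bacterial ribosomes and others exist only in mitochondria. In neurons, whose synapses draw heavily on oxidative phosphorylation, this ribosome supplies core subunits of complexes I, III and IV and of ATP synthase.

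No member passed the test between the ages, and the large and small subunit genes gave similar values. Of the 73 members with enough counts to test, 0 passed edgeR's quasi-likelihood test at an adjusted p under 0.05, where 0% of all 14588 genes tested passed. At an unadjusted p under 0.05 there were also 0 members, against 3.45% of all genes. DESeq2, limma-voom and limma on log2 FPKM also called 0 members. DESeq2 called 0.213% of all genes. The median log2 fold change (aged minus adult) was -0.04 over 44 large subunit genes and 0.0015 over 29 small subunit genes, beside -0.0022 over all genes tested.

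Whole series facts that touch these values are few. Library totals ran from 12476758 to 15689921 counts, the smallest being aged replicate 2. All 9 neuronal markers looked up, such as Snap25, Camk2a and Prox1, were expressed, and their sum lay between 5187 and 6286 CPM (counts scaled to library size) in the adult and between 5141 and 7206 in the aged libraries. The 7 oligodendrocyte markers summed to between 11320 and 16990 CPM in the adult and between 6691 and 8887 CPM in the aged libraries, which did not overlap, and the part of this difference in the members' values was not tested. Markers of other tissues were uneven: the 5 choroid plexus genes tested summed to 2132 CPM in adult replicate 1 and to at most 73.7 CPM elsewhere. The 12 liver genes summed to 29.03 and 35.01 CPM in replicate 1 of the adult and aged rats and to between 225 and 598 CPM in the other 4 libraries. The 10 skeletal muscle genes summed to 554.4 CPM in adult replicate 3, to 41.6 CPM in aged replicate 2 and to between 99.8 and 169 CPM in the other 4. The part of these tissues in the members' values was not tested.

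The promoters of members were read for motifs of factors known to act on nuclear genes for mitochondria. RefSeq windows of 300 bases on GRCr8, from 250 bases before to 50 after the annotated start, were matched by symbol for 60 members (62 windows). Mrpl13, Mrpl15, Mrpl16, Mrpl19, Mrpl21, Mrpl35, Mrpl38, Mrpl43, Mrps12, Mrps21l, Mrps22, Mrps24, Mrps28, Mrps34, Mrps35 and Mrps36 had none. The letters GCGCNTGCG, from the site of nuclear respiratory factor NRF1, were in 12 member windows (19.4%) and in 5.75% of all 33469 windows, on either strand. The ETS family site CCGGAAGT, which the factor GABP binds, was in 8 (12.9% against 3.81%), and AAGATGGCG, a site of YY1, was in 9 (14.5% against 1.73%). At least 1 of the 3 was in 27 member windows (43.5%) and in 10.3% of all windows. Among windows of the genes in the count table, NRF1 letters were in 9.39%, ETS letters in 5.76% and YY1 letters in 2.57%, and 16.1% held at least 1. The NRF1 and YY1 forms used here were shortened after longer ones had been counted, which raised their counts. Matches of different motifs did not overlap in any member window, and 2 windows held more than 1 motif.

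The windows below show how such matches lie ahead of some members, each as the 100 bases up to the base before the start, 5′ to 3′ on the gene's strand, with the matched letters in capitals. Mrpl17, which forms part of the exit tunnel, and Mrpl57 carry NRF1 letters at more than 1 place, and Mrpl48, Mrpl27 and Mrpl53 carry ETS letters. Mrpl48 stands for members of ordinary spread, its highest library exceeding the lowest of the same age by up to 1.34-fold, Mrpl27 is among the highest in level, and Mrpl53 is shown because its level was the least even of all.
Mrpl17 (GRCr8 chr1:169575700-169575799, minus strand): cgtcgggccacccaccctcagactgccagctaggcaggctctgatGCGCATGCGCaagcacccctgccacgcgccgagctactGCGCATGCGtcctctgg
Mrpl57 (GRCr8 chr15:36086357-36086456, plus strand): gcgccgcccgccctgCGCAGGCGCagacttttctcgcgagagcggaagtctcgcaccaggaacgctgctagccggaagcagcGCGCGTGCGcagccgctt
Mrpl48 (GRCr8 chr1:164351377-164351476, minus strand): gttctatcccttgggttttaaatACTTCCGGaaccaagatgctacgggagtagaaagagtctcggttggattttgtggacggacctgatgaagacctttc
Mrpl27 (GRCr8 chr10:80092245-80092344, plus strand): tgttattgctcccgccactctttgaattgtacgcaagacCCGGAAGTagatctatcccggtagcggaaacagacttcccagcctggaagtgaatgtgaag
Mrpl53 (GRCr8 chr4:117172943-117173042, plus strand): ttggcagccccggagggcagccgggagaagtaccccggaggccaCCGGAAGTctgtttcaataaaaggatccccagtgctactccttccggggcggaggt

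YY1 letters lay at or after the start in 8 of the 9 windows. They are shown as 30 bases around the match for Mrps30, Mrpl50 and Mrps18a, of which Mrps30 and Mrpl50 had among the smallest p of the members in either direction.
Mrps30 (GRCr8 chr2:52195867-52195896, minus strand): gcggaggacaAAGATGGCGgctgccaggta
Mrpl50 (GRCr8 chr5:68668042-68668071, minus strand): gagcttgtcgAAGATGGCGgcgctgtgtgt
Mrps18a (GRCr8 chr9:22367361-22367390, minus strand): gtgtgttcccAAGATGGCGgccctcagggc
A match of letters is a description of these windows. No binding was measured, and genes with and without a match were not compared in expression.

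Before any age comparison, the members differed widely in level. FPKM values, counts scaled by gene length and library total, allow genes to be set side by side. Mrpl54, a mitochondria-specific protein near the stalk of the large subunit, had the highest mean (124.7 FPKM), followed by Mrpl27 (106.8 FPKM), which lies near the site of peptide bond formation, and Mrpl20 (97.1 FPKM). Among small subunit symbols the highest means belonged to Mrps18a (85.3 FPKM), Mrps25 (85.2 FPKM) and Mrps21 (81.7 FPKM). These last 3 cannot be ordered, since Mrps21 alone ran from 66.3 to 98.9 FPKM over the libraries.

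At the other end, 72 members stood above a mean of 7 FPKM, down to Mrpl40 at 7.07 FPKM, and 4 lay far below. Mrpl1, the homologue of a protein that forms the movable L1 stalk in bacteria, stood at 1.01, 1.00 and 1.92 FPKM in adult replicates 1 to 3 and at 1.75, 1.71 and 1.92 FPKM in aged replicates 1 to 3. Mrps21l had between 0 and 6 counts in a library and Mrpl30 between 0 and 3. Mrpl36 had 0 counts in all 6 libraries. These last 3 members were left out of the tests by the filter on low counts. The GRCr8 annotation names 9 further genes after Mrpl30 as copies and 2 after Mrpl1, and Mrpl36 overlaps the respiratory chain gene Ndufs6 there. How reads were shared among such genes was not tested.

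**Figure D1:**
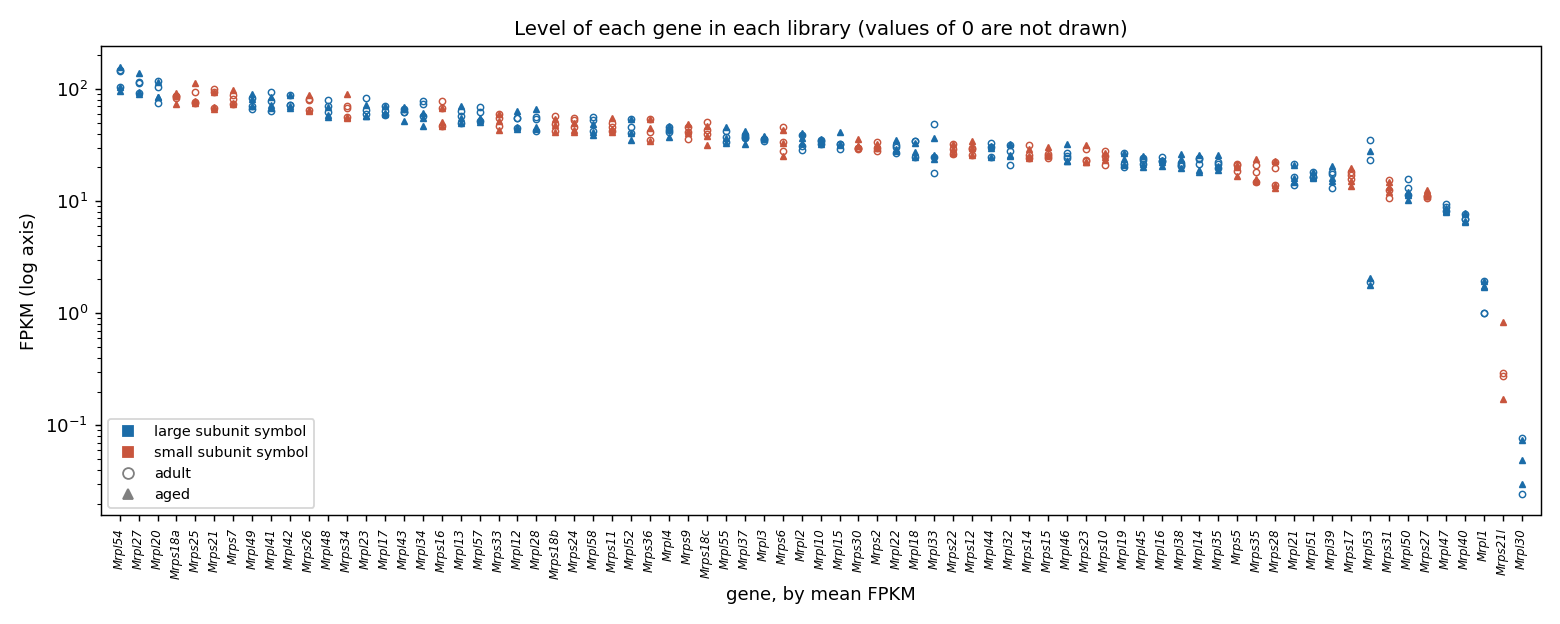
Level of each member in each library, in FPKM on a log axis, ordered by mean; blue marks large subunit symbols, red small ones, open circles adult and filled triangles aged rats. Adult and aged points overlap for all genes drawn but Mrpl3 and Mrps30, and Mrpl1, Mrps21l and Mrpl30 lie far below the rest (Mrpl36, at 0, is not drawn).

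Summed over each subunit, the level per length overlapped between the ages. Large subunit symbols summed to 2028, 1646 and 1966 FPKM in adult replicates 1 to 3 and to 1734, 2083 and 1618 FPKM in aged replicates 1 to 3. Small subunit symbols summed to 1344, 1066 and 1252 FPKM in the adult and to 1112, 1415 and 1069 FPKM in the aged libraries. In both subunits aged replicate 2 was highest and adult replicate 2 or aged replicate 3 lowest, so that each age spanned nearly the whole range. The ratio of the large to the small sum was 1.54 ± 0.031 in adult and 1.51 ± 0.043 in aged rats (SD, n = 3). It ran from 1.51 to 1.57 in the adult and from 1.47 to 1.56 in the aged libraries, which overlap. Per gene, the means were alike in both subunits, at 40.9 and 40.7 FPKM in adult and 39.4 and 40.0 FPKM in aged rats for large and small.

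Symbols do not always follow the place of a protein in the ribosome. Mrps18a and Mrps30 are named for the small subunit, yet structures of the mammalian ribosome place both in the large one. Mrps36 is now known as a component of the 2-oxoglutarate dehydrogenase complex, and the GRCr8 annotation calls it Kgd4. With Mrps18a and Mrps30 moved and Mrps36 left out, the median log2 fold change was -0.03 over 46 large and -0.0033 over 26 small subunit genes. The difference between the medians (large minus small) was -0.0383 by symbol. A related measure, the difference between the subunits' median log2 CPM deviations in single libraries, had a pooled within-age SD of 0.0354. Per library, the median deviation of the large minus that of the small subunit genes was -0.014, 0.0417 and 0.0405 in adult and 0.0379, -0.0392 and 0.00409 in aged replicates 1 to 3, so the ages overlapped.

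Direction was mixed in both subunits. Of the large subunit genes, 16 had log2 fold changes above 0 and 28 below, and of the small subunit genes 15 lay above and 14 below. Over all genes tested, 50.5% lay below 0. By edgeR 31 of the 73 members lay above 0 and 42 below, and by limma on log2 CPM 28 lay above and 45 below. With each library's trend on gene length removed, a correction chosen after seeing the data, limma on log2 CPM put 41 above and 32 below. The 3 adult and the 3 aged CPM values overlapped in each of the 73 members, so that 0 were separate between the ages, against 7.56% of all genes tested (3.13% higher and 4.43% lower in aged rats).

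The intervals were narrow for most members. The 95% interval of the log2 fold change lay within 2-fold in either direction for 71 of 73 members, against 75.9% of all genes tested. It lay within 1.5-fold for 61 members, against 7273 of the 14588 genes tested. The members' median level was 40.8 CPM, against 25.2 CPM over all genes tested, and genes of like level were not compared for this. The exceptions to the 2-fold bound were Mrpl53 and Mrpl1, chosen here for that reason. The middle part of the log2 fold changes, between the lower and upper quartiles, ran from -0.10 to 0.026 in the members and from -0.11 to 0.099 in the 11536 genes averaging 5 CPM or more.

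**Figure D2:**
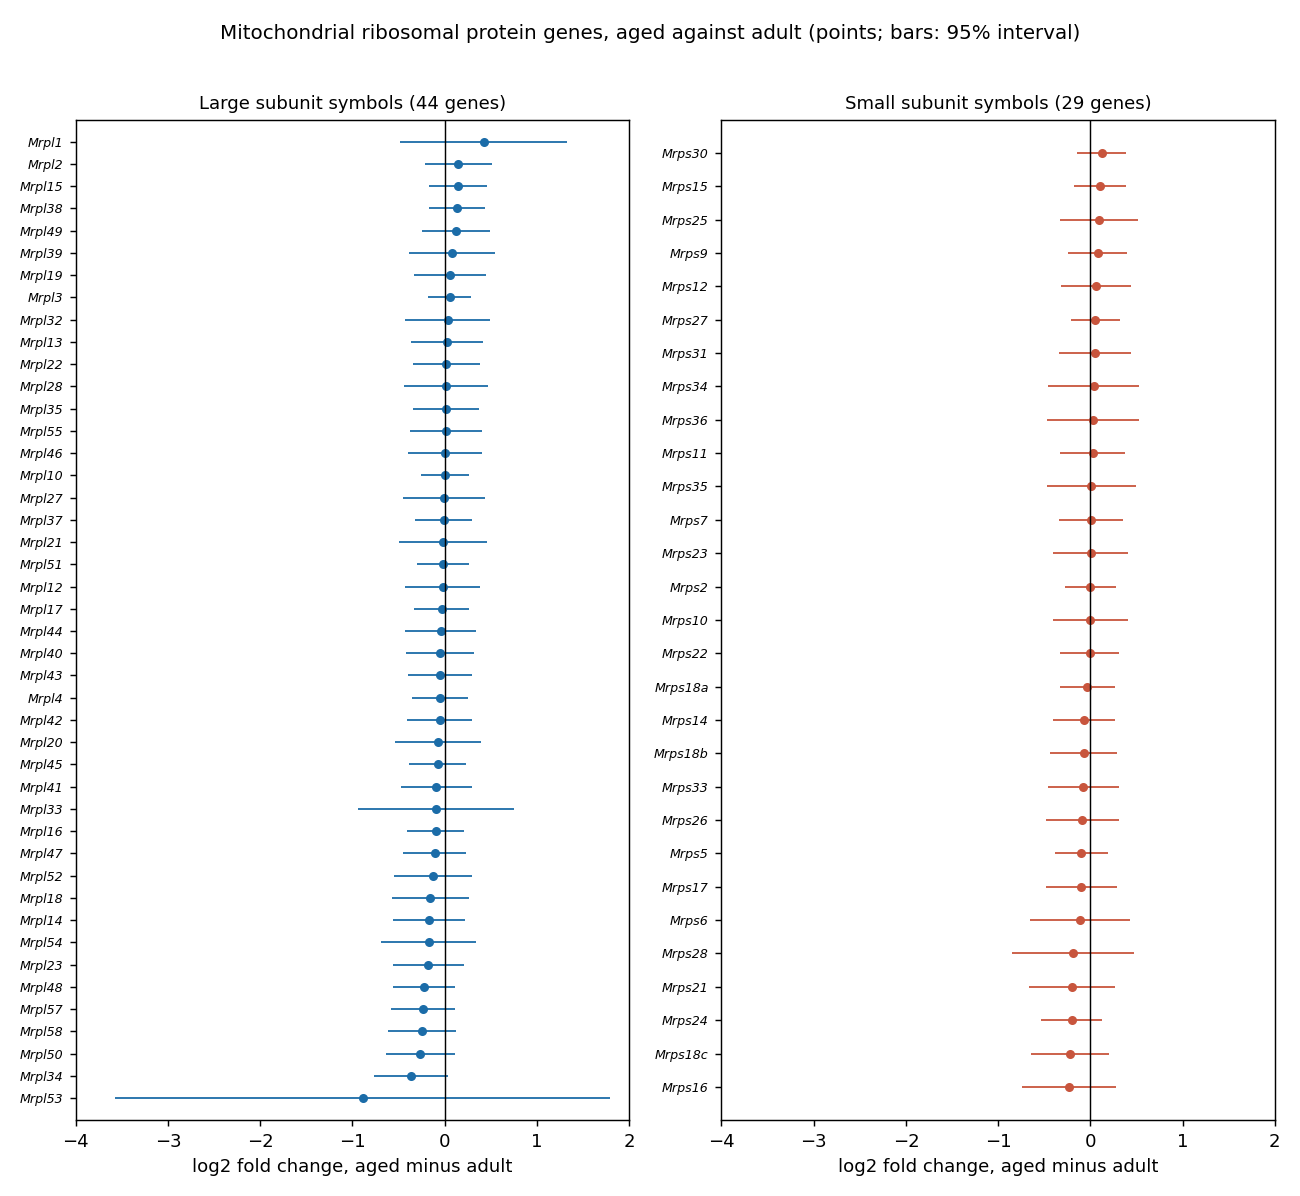
Log2 fold change of each tested member, aged minus adult, from edgeR (points) with its 95% interval (bars), large subunit symbols left and small ones right. Every interval spans 0; the wide bar at the foot of the left panel is Mrpl53.

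Among members with lower means in aged rats, the smallest p belonged to Mrpl34, a small protein of bacterial descent. It stood at 44.3, 32.4 and 43.5 CPM in adult replicates 1 to 3 and at 32.28, 35.02 and 25.85 CPM in the aged replicates 1 to 3. Adult replicate 2 lay below aged replicate 2, so the ages overlapped. By edgeR its log2 fold change was -0.37 ± 0.17 (SE), its p 0.0668 and its adjusted p 1.00, as for every member. Mrpl50, a protein found only in mitochondria, averaged 24.1 ± 3.95 CPM in the adult and 20.1 ± 1.05 in the aged rats (SD, n = 3, the order kept from here on), and Mrpl57, also restricted to mitochondria, averaged 41.4 ± 6.74 and 35.2 ± 2.38 CPM. Both overlapped through adult replicate 2, which was the lowest adult library for each.

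The next members in that order included proteins of known place. Mrpl48, part of the central protuberance that faces the small subunit, stood at 90.5, 79.1 and 105.8 CPM in the adult and at 74.1, 88.8 and 72.9 CPM in the aged replicates 1 to 3. Mrpl58, which retains the peptidyl-tRNA hydrolase fold and sits in the large subunit, averaged 42.0 ± 6.56 and 35.5 ± 4.75 CPM. Mrps24, the homologue of bacterial S3 at the messenger RNA entry of the small subunit, averaged 40.5 ± 4.58 and 35.2 ± 4.08 CPM. None of these passed the test, and aged replicate 2 lay within the adult range for all of them.

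Members with higher means in aged rats had larger p than those just described. Mrps30 stood at 45.1, 45.3 and 46.9 CPM in the adult and at 48.4, 55.3 and 46.2 CPM in the aged replicates 1 to 3, which gave 0.13 ± 0.12 (SE) as log2 fold change. Only aged replicate 3 overlapped the adult values, and on the FPKM scale none did (29.4 to 29.7 FPKM in the adult, 30.9 to 35.9 FPKM in the aged libraries). The single other member separate on that scale was Mrpl3, a core protein of bacterial descent, with 34.1 to 36.1 FPKM in the adult and 36.8 to 37.8 FPKM in the aged libraries. Mrpl15 averaged 70.7 ± 4.69 and 78.2 ± 12.02 CPM, and Mrpl2, which lines the peptidyl transferase centre, averaged 32.5 ± 5.18 and 36.1 ± 3.82 CPM. For both genes aged replicate 2 was the highest library and the ages overlapped. Mrpl38, another protein of the central protuberance, averaged 45.9 ± 2.23 and 50.5 ± 6.98 CPM, and Mrps15 averaged 55.7 ± 3.53 and 59.9 ± 6.20 CPM. Mrpl1, at 1.43 ± 0.606 and 1.93 ± 0.0776 CPM, had the largest positive log2 fold change (0.43 ± 0.39 SE), and its low counts gave an interval from -0.48 to 1.33. Without adult replicate 3, its highest adult library, the value was 0.83, and without adult replicate 2 or adult replicate 1 it was 0.26 and 0.28.

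Grouped by place in the large subunit, each site had a median log2 fold change somewhat below 0 and 0 genes called. The 4 stalk genes had the lowest median, -0.10, with 3 of 4 below 0. The exit tunnel, through which the new chain leaves, was covered by 5 tested genes with a median log2 fold change of -0.08. Among them Mrpl45, which tethers the ribosome to the inner membrane, stood at 53.7, 47.2 and 53.2 CPM in the adult and at 48.3, 55.6 and 42.4 CPM in the aged replicates 1 to 3. Aged replicates 2 and 3 were the highest and the lowest of all 6 libraries. The 5 genes of the central protuberance had a median of -0.04. By descent, 42 proteins with a bacterial homologue had a median of -0.03 and 30 mitochondria-specific ones also had a median of -0.03.

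Among small subunit symbols, Mrps12, which lies at the decoding centre, averaged 25.2 ± 2.32 and 26.4 ± 4.29 CPM. The 3 relatives of bacterial S18 were all expressed, and of these Mrps18a lies in the large subunit, as given above. Mrps18a averaged 71.2 ± 2.65 and 69.6 ± 9.59 CPM, Mrps18b 53.1 ± 8.69 and 50.5 ± 6.497 CPM, and Mrps18c 36.3 ± 4.66 and 31.2 ± 6.497 CPM. All 3 had log2 fold changes below 0, at -0.03, -0.07 and -0.22, and the ages overlapped for each. Mrps36 averaged 51.3 ± 11.04 and 52.4 ± 12.5 CPM.

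The stalk, the flexible arm that recruits translation factors, held the member that varied most between animals. Mrpl53 stood at 1.16, 14.1 and 22.0 CPM in adult replicates 1 to 3 and at 17.7, 1.29 and 1.06 CPM in the aged replicates 1 to 3. It was thus near absent in 1 adult and 2 aged libraries and plainly present in the other 3, with both ages on both sides. The highest library exceeded the lowest of the same age by up to 18.9-fold. It was the only member with a gap of at least 4-fold within an age, a gap seen in 1.95% of the genes averaging 5 CPM or more.

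The log2 fold change of Mrpl53, -0.89 ± 1.17 (SE), had an interval from -3.57 to 1.80. Leaving out aged replicate 1 made it -3.38, and leaving out adult replicate 3 made it -0.19. Other stalk genes did not share its pattern. Mrpl54 stood at 89.3, 63.3 and 90.1 CPM in the adult and 64.4, 95.4 and 55.9 CPM in the aged replicates 1 to 3, and Mrpl12, which has also been reported to bind the mitochondrial RNA polymerase, averaged 81.0 ± 10.7 and 80.0 ± 17.7 CPM. Mrpl10, which anchors the stalk, had nearly equal means, at 57.9 ± 3.45 and 58.0 ± 4.23 CPM. The gene next to Mrpl53 in GRCr8, Ccdc142, had at most 8 counts in a library. No other gene overlaps Mrpl53 in that annotation, and it names no copy of Mrpl53. Whether reads or the animals' sequence at this gene differ was not tested.

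**Figure D3:**
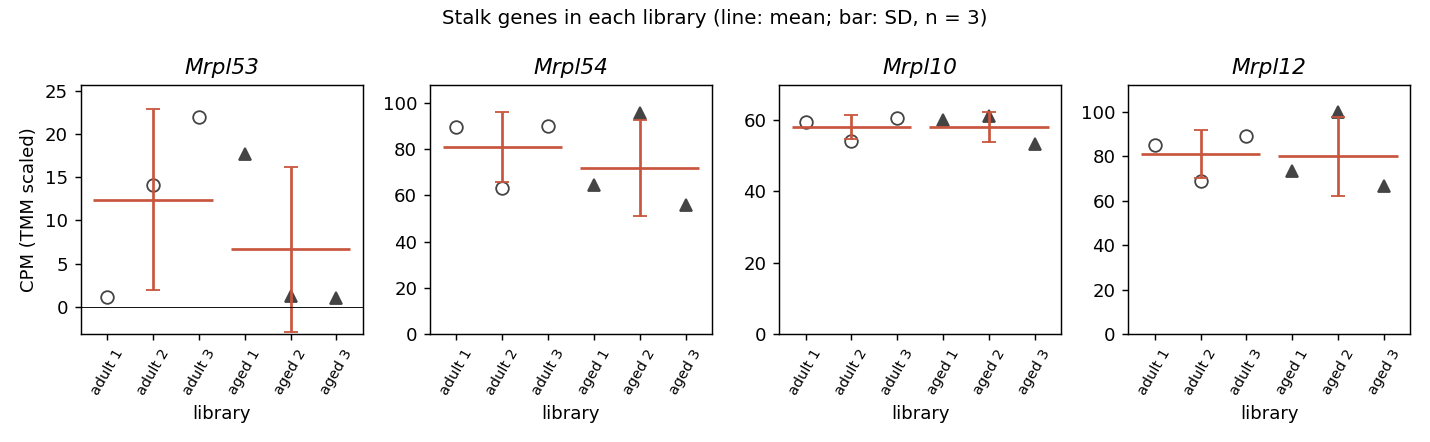
CPM of 4 stalk genes in each library, adult as open circles and aged as triangles, with the mean (line) and SD (bar, n = 3) of each age. Mrpl53 is near 1 CPM in adult replicate 1 and aged replicates 2 and 3, while the other genes vary far less.

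What the members did share was a pattern across animals that ran through both ages. Adult replicate 2 was the lowest adult library for 67 of 73 members (91.8%), against 35.5% of all genes tested. Aged replicate 2 was the highest aged library for 61 members (83.6%, against 37.6% of all genes) and aged replicate 3 the lowest for 61 (83.6%, against 35.7%). Genes of 1 library share its preparation and depth, so these counts describe the 6 libraries and are not separate observations. The median deviation of the members from their mean over the libraries was 0.14, -0.15 and 0.08 in adult replicates 1 to 3 and -0.08, 0.21 and -0.21 in aged replicates 1 to 3, on the log2 CPM scale.

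Both subunits moved together in this way. Large subunit genes had median deviations of 0.13, -0.13 and 0.10 in adult and -0.05, 0.17 and -0.21 in aged replicates 1 to 3. Small subunit genes had 0.14, -0.17 and 0.06 in adult and -0.09, 0.21 and -0.21 in aged replicates 1 to 3. The sign was the same for both subunits in every library. The spread between rats of 1 age was therefore larger than the difference between the ages, and the direction changed with the animals entered. Without aged replicate 2, 60 of 73 members lay below 0 (median -0.13), and without aged replicate 3, 23 did (median 0.06). Without adult replicate 2, 63 lay below 0 (median -0.11), and without adult replicate 1, 27 did (median 0.05). Without adult replicate 3 or aged replicate 1, 34 and 36 lay below 0 (medians 0.0068 and 0.0038).

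**Figure D4:**
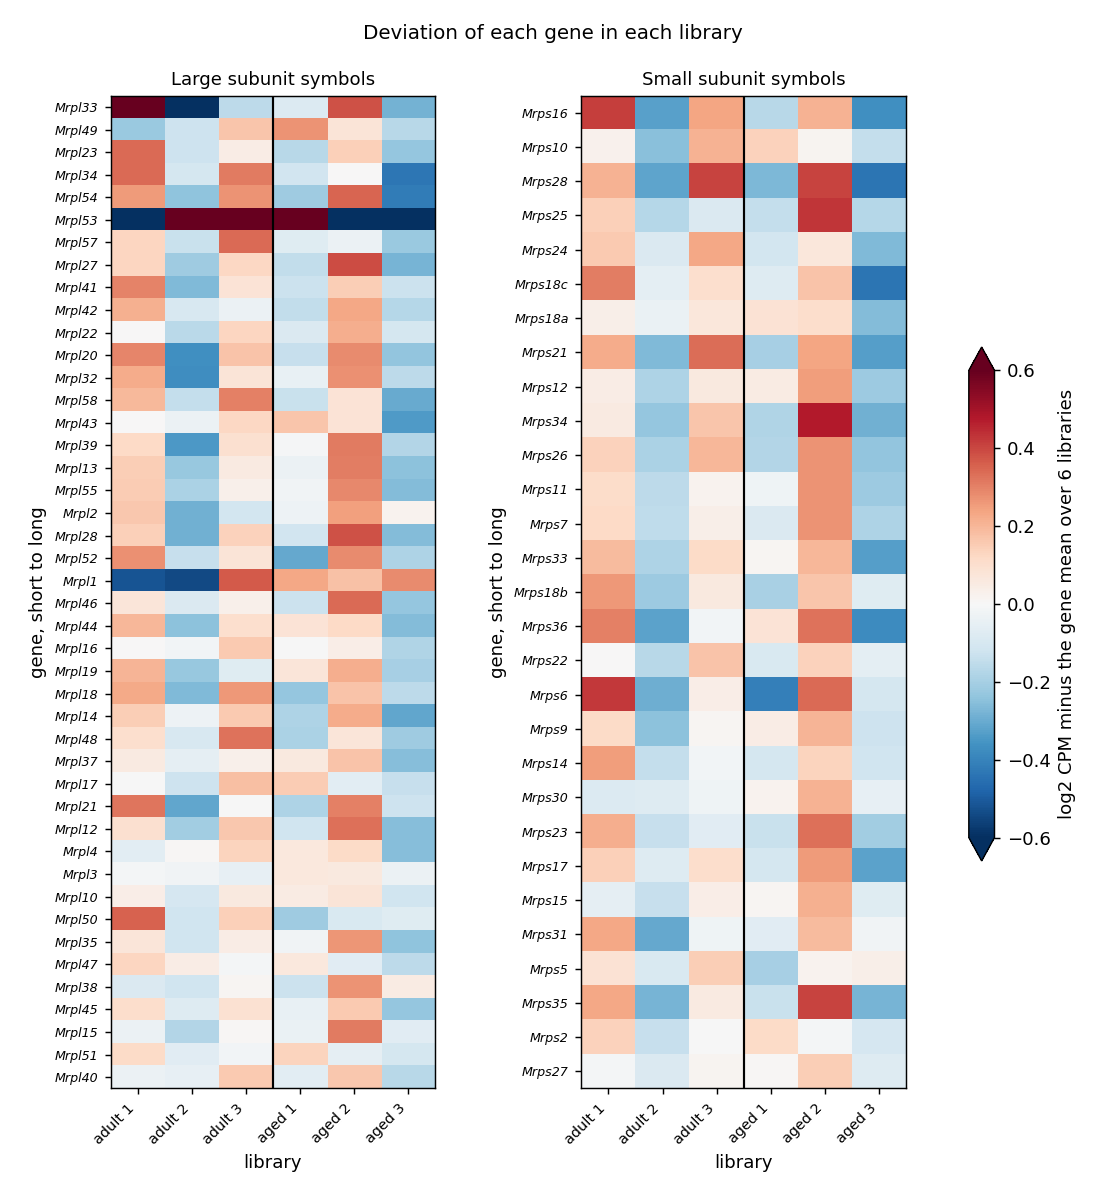
Log2 CPM of each tested member in each library minus its mean over the 6 libraries (red above, blue below), genes ordered from short to long within each subunit. Columns, not ages, carry the common colour: adult replicate 1 and aged replicate 2 are mostly red and adult replicate 2 and aged replicate 3 mostly blue, while Mrpl53 and Mrpl1 depart from this.

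Gene length moved with this pattern. Members are short, with a median length of 1081 bases in the deposited values against 3078.5 for all genes tested. Among the 553 other genes under 800 bases, the median deviations were 0.25, -0.13 and 0.13 in adult and -0.15, 0.21 and -0.28 in aged replicates 1 to 3. The 18 members of that length had 0.21, -0.19 and 0.17 in adult and -0.12, 0.21 and -0.23 in aged replicates 1 to 3, the same signs and nearly the same sizes. Between 800 and 1000 bases the 349 other genes had 0.17, -0.13, 0.11, -0.10, 0.16 and -0.20 in that order of libraries. The 14 members there had 0.13, -0.19, 0.08, -0.03, 0.26 and -0.25, nearer 0 in some libraries and farther in others. From 1000 to 2500 bases the members lay farther from 0. Between 1000 and 1500 bases the 1460 other genes had 0.09, -0.08, 0.07, -0.04, 0.12 and -0.14 in the same order of libraries, and the 19 members had 0.15, -0.18, 0.10, -0.09, 0.17 and -0.18. Between 1500 and 2500 bases the 3285 other genes had deviations between -0.07 and 0.06, and the 21 members had 0.10, -0.12, 0.04, -0.04, 0.19 and -0.12. The part of length in the members' pattern was not tested beyond these values.

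**Figure D5:**
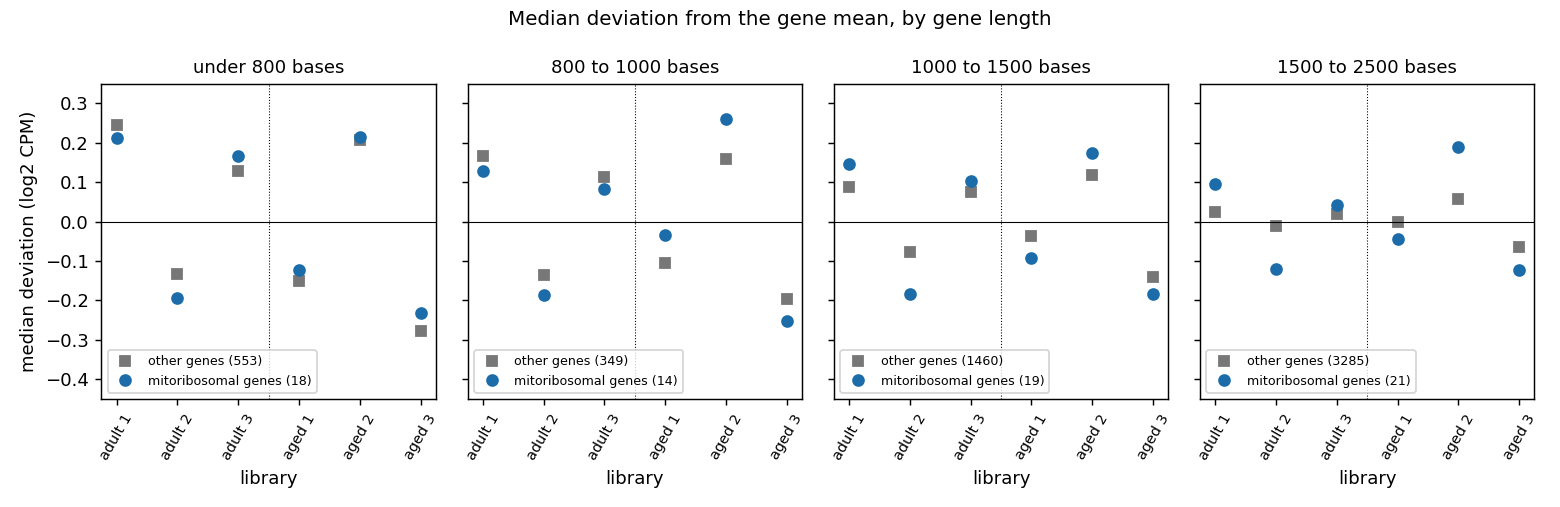
Median deviation in log2 CPM from the gene mean in each library, for members (blue circles) and all other tested genes (grey squares) in 4 bands of gene length. The 2 sets nearly coincide under 800 bases, while between 1500 and 2500 bases the members lie farther from 0 than other genes in each library.

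Other genes of mitochondrial protein synthesis gave a similar result for age. None of 14 translation factors, 19 genes that charge mitochondrial tRNAs (aminoacyl-tRNA synthetases and the amidotransferase subunits Gatb, Gatc and Qrsl1), 26 assembly and ribosomal RNA modification factors or 18 factors of mitochondrial transcription and RNA processing was called by edgeR, nor did any reach an unadjusted p under 0.05. Their median log2 fold changes were 0.05, 0.04, 0.06 and 0.02 in that order. Of the 19 tRNA charging genes 15 lay above 0, and of the 26 assembly factors 18 did. The 14 translation factors divided into 8 above and 6 below. Values did not overlap between the ages for 2 of the translation factors, 1 of the tRNA charging genes, 1 of the assembly factors and 0 of the transcription and processing factors, beside 7.56% of all genes tested. Among them was Taco1, a translational activator for cytochrome oxidase (5.96 ± 0.190 and 4.65 ± 0.549 CPM). Another was Lars2, the leucyl-tRNA synthetase (19.0 ± 0.559 and 22.1 ± 2.12 CPM). The others, named here after their values were seen, were the initiation factor Mtif3, lower in each aged library at 11.2 to 11.5 CPM against 11.9 to 13.4 CPM, and the assembly helicase Dhx30, higher at 130.4 to 136.8 CPM against 120.5 to 124.3 CPM. None of these 4 passed the test.

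Other genes with the smallest p in these lists overlapped between the ages. Trub2, a pseudouridine synthase, averaged 25.4 ± 3.71 and 32.3 ± 3.54 CPM, and Fastkd1, an RNA-binding protein of mitochondria, averaged 19.6 ± 4.44 and 24.5 ± 0.840 CPM. Slirp, which protects mitochondrial messenger RNAs, averaged 30.5 ± 7.14 and 24.3 ± 3.67 CPM. Its partner Lrpprc averaged 106.6 ± 5.18 and 116.6 ± 4.95 CPM. The genes that start the pathway differed little: Polrmt, the mitochondrial RNA polymerase, averaged 37.1 ± 1.118 and 39.1 ± 4.38 CPM, and Tfam, which packages mitochondrial DNA and starts its transcription, averaged 35.2 ± 4.84 and 34.0 ± 2.00 CPM. Tsfm, Rpusd3 and Gatc had log2 fold changes of 0.20, -0.22 and -0.18.

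Mitochondrial ribosomal proteins whose symbols do not carry the family name were not called either. Of 5 tested, Dap3 lay above 0 and Chchd1, Ptcd3, Aurkaip1 and Gadd45gip1 below. Dap3, a GTP-binding protein of the small subunit head, averaged 48.6 ± 4.85 and 49.9 ± 1.74 CPM, and Gadd45gip1, of the large subunit, averaged 76.7 ± 8.83 and 69.4 ± 15.6 CPM. The log2 fold changes of Chchd1, Ptcd3 and Aurkaip1 were -0.14, -0.03 and -0.01. The nuclear respiratory chain genes, which make the partners of the proteins that this ribosome translates, had 13 of 40 above 0 and a median of -0.05. Sdhc and Cox7c, with the smallest p among them, had the following means. Sdhc, an anchor of complex II, averaged 177.0 ± 18.7 and 152.5 ± 21.3 CPM, and Cox7c, a small subunit of complex IV, averaged 262.5 ± 62.5 and 217.1 ± 28.1 CPM.

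Libraries were also ordered alike in some of these related sets. Nuclear respiratory chain genes had median deviations of 0.20, -0.16 and 0.06 in adult and -0.05, 0.19 and -0.24 in aged replicates 1 to 3. Of 78 cytosolic ribosomal protein genes, 0 were called by edgeR, 2 had an unadjusted p under 0.05, 75 lay below 0 and the median log2 fold change was -0.15. Over all genes tested, 3.45% had such a p and 50.5% lay below 0. The 553 non-member genes under 800 bases, a set that did not leave out cytosolic ribosomal genes, had a median of -0.14. The part of length in these values was not tested. The cytosolic ribosomal protein genes had median deviations of 0.25, -0.12 and 0.12 in adult and -0.26, 0.31 and -0.32 in aged replicates 1 to 3. Every sign was the one the members had. The transcription and processing factors also had the members' signs, and the translation and assembly factors did but for aged replicate 1 (0.02 and 0.03). The tRNA charging genes had deviations between -0.06 and 0.08 and did not follow this order. They measured from 1564 to 8702 bases, and the nuclear respiratory chain genes from 425 to 4968 bases. The 8868 other genes over 2500 bases had deviations between -0.05 and 0.05. The part of length in this contrast was not tested. The 9 neuronal markers had -0.44, 0.04 and 0.23 in adult and 0.30, -0.35 and 0.02 in aged replicates 1 to 3, below 0 in the libraries where the members stood highest. The part of neuronal content in the members' pattern was not tested, and in bulk tissue fewer cells of a type and less RNA per cell cannot be told apart.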

How the data were processed

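The authors deposited raw counts per gene symbol for the 6 libraries, and FPKM values that the authors made from the same counts, scaled by library total and by 1 length per gene, as found from the values. The genome build was Rnor_6.0 per the submitters' processing notes. For the aligner, counter, annotation and strand setting, names and versions were not given in the sources used here. Counts were filtered with edgeR's filterByExpr, given TMM factors and compared by the quasi-likelihood F test of edgeR (version 4.0.16 in R 4.3.3), aged against adult, with Benjamini-Hochberg adjustment over all 14588 genes and a threshold of 0.05. Standard errors and 95% intervals were derived from the F statistic. CPM values are TMM scaled, and log2 CPM used a prior count of 2. Tests rest on 3 rats per age. Alternatives used DESeq2 1.42.0 and limma 3.58.1, other scalings and filters, a replicate block, and each library left out. The test script was checked on simulated data first. There, 0 of 50 genes changed 1.5-fold were called, 29 of 50 changed 2-fold and 42 of 50 changed 4-fold.

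Members and gene lists were chosen with earlier results of these data known. Members named are the 6 with the smallest p in each direction, the 3 highest in mean FPKM per subunit, those failing the filter, those differing 4-fold within an age, and a few of known role. In related lists the 2 genes with the smallest p were named, with all ribosomal proteins under other names and Polrmt, Tfam and Lrpprc. All 76 members matched GRCr8 by symbol or synonym. The NRF1 and YY1 letters searched there were shortened after longer forms had been counted, which raised their counts. That assembly differs from the authors' build and was used for names, neighbours and RefSeq promoter sequence only. Of the tested members, 18 overlap another gene there and 23 share their name with an annotated copy, and without knowing the strand or multi-mapping settings their counts remain uncertain. Mrpl11 and Mrpl24 were not analysed here.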

Additional observations from a re-analysis of the deposited data

How the results depend on the processing

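Under the scalings, filters, tools, designs and left-out libraries tried, 0 members were called by edgeR, DESeq2 or limma, also at an adjusted p under 0.1. The count of all genes called was 31 with DESeq2, 2 with limma on log2(FPKM + 1), and between 0 and 1 when each library was left out. The median over large subunit members lay between -0.13 and 0.06 and over small subunit members between -0.13 and 0.07 when each library was left out. The difference of the medians lay between -0.0309 and 0.000924 there. By limma on log2 CPM it was 0.0024 with the length trend removed and -0.0278 without that correction. The cause of these shifts was not tested. With the replicate number as a block the median was -0.0333 for large and -0.00724 for small subunit members, with 0 members called. Over genes, deviations of same-numbered libraries correlated at -0.0152, -0.057 and 0.0865, and not every library correlated best with its own number. Whether same-numbered libraries shared a step of preparation was not tested.

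Of 846 values of 47 genes (those of the naming rule and Mrpl3, Mtif3 and Dhx30), recomputed under the alternatives, 802 kept their direction and 44 did not, in 16 genes, and 0 passed the threshold. Mrpl27 was at 0.0024 with RLE scaling, 0.0022 with upper quartile scaling, 0.012 with the library total, 0.0026 with DESeq2 and 0.10 with the length trend removed. That correction also turned Mrpl20 (0.0475), Mrps18a (0.0535) and Aurkaip1 (0.035). Aurkaip1 was at 0.0061 with the library total and at 0.0057 with log2 FPKM at either pseudocount. When each library was left out, the log2 fold changes ran from -0.23 to 0.13 for Mrpl27, from -0.25 to 0.075 for Mrpl20, from -0.20 to 0.10 for Mrpl12, from -0.0462 to 0.0613 for Mrpl10, from -0.17 to 0.0168 for Mrpl45, from -0.0482 to 0.18 for Mrps12, from -0.0913 to 0.0763 for Mrps18a, from -0.19 to 0.0581 for Mrps18b, from -0.12 to 0.21 for Mrps25 and from -0.13 to 0.21 for Mrps36. They ran from -0.14 to 0.0818 for Aurkaip1, from -0.35 to 0.0035 for Chchd1, from -0.013 to 0.13 for Dap3, from -0.10 to 0.0595 for Ptcd3, from -0.16 to 0.0304 for Tfam and from -0.0111 to 0.17 for Polrmt. Intervals are for the difference between the ages and rest on the spread between these animals. Mrpl30, Mrps21l and Mrpl36 had too few counts to be tested. Mrpl1 was tested at low counts, with an interval from -0.48 to 1.33, and the interval of Mrpl53 ran from -3.57 to 1.80. A call was not assured for other members either, and the rate of calls for members was not found. In the simulation 0 of 50 genes changed 1.5-fold and 29 of 50 changed 2-fold were called. Those genes were drawn without regard to membership, and 4-fold and 8-fold changes were planted in the same run, so these rates need not hold for members.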
